A study of Homo sapiens with 20 samples.

Results

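Poised enhancer capture Hi-C (PECHi-C) data from days 3 and 5 of a naive-to-primed transition were set against those from naive cells and day 1. The 4 conditions hold 8 of the 20 libraries of the study, 2 per condition, and each condition has 1 column of interaction scores. A contact is a captured bait fragment with a second fragment, the other end, and a condition called it where its score reached 5. Gained contacts were those called at both day 3 and day 5 and in neither naive nor day 1, and lost contacts the reverse. Among 182303 listed contacts with both ends on the same chromosome (of 766138 listed in all), 986 were gained, or 0.541%, and 578 were lost, or 0.317%. The classes were set by the scores in these columns, so their sizes and these scores are a description.

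All 4 conditions came from HNES1, 1 human embryonic stem cell line, so they show 1 genetic background. Naive cells were kept on mouse feeder cells in N2B27 medium with PD0325901, human LIF, Gö6983 and XAV939. PD0325901 inhibits MEK, Gö6983 inhibits protein kinase C and XAV939 inhibits tankyrase. Before the transition the cells were passaged once without feeders, plated on Geltrex in naive medium with the ROCK inhibitor Y-27632, and then moved to N2B27 with XAV939 alone for 1, 3 or 5 days. The naive condition is day 0, and N2B27 and XAV939 are common to all 4 conditions. Other columns held days 7, 10 and 14, primed H9 cells, definitive endoderm (DE) and neuroectoderm (NE). Contact scores do not measure expression, so the naive or transitional identity of the cells was not checked against marker genes.

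Poised enhancers are regulatory elements of developmental genes that carry enhancer-associated marks together with the repressive mark of Polycomb group proteins in pluripotent cells. Polycomb-bound elements can meet over long distances in the nucleus, and HOX clusters and other homeobox loci are their best-known sites. Capture Hi-C enriches ligated fragment pairs for chosen baits, and CHiCAGO scores how far the reads of a pair exceed those expected at its distance. A score therefore also depends on sequencing depth, which was unknown here.

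Both libraries of a condition were pooled in 1 score, so there are 2 values on each side and no replicate error. An exact permutation test of 2 against 2 columns cannot go below a two-sided p of 0.333, and no test was run. Intervals are Wilson 95% intervals and cover counting error only. The word "more" is used of a gene or locus where both day 3 and day 5 exceeded both naive and day 1, and "fewer" of the reverse. Ties count as neither, so a gene or locus with few calls meets either word less readily.

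Promoter sequences are shown for the genes whose own promoter fragment carried gained or lost contacts among those the results turn on. Each run is the 250 bases before a gene start, 5′ to 3′ on the gene's strand, from RefSeq on GRCh38.p14, with CG dinucleotides in capitals, because CG-rich promoters are typical targets of Polycomb proteins. For a gene with several starts the window with most CG is given.
HOXA10, chr7:27174321-27174570, minus strand, 24 CG: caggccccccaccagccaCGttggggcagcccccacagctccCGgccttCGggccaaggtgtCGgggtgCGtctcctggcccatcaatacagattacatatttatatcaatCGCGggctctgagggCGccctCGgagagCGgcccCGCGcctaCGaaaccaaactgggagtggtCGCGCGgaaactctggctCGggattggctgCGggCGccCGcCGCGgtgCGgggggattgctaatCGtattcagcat
HOXA11, chr7:27185233-27185482, minus strand, 11 CG: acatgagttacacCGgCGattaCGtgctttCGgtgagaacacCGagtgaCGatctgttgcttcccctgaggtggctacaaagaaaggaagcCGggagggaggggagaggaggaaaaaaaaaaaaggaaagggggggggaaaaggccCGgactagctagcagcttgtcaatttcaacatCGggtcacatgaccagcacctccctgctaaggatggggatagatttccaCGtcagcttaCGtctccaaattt
NKX2-1, chr14:36520233-36520482, minus strand, 18 CG: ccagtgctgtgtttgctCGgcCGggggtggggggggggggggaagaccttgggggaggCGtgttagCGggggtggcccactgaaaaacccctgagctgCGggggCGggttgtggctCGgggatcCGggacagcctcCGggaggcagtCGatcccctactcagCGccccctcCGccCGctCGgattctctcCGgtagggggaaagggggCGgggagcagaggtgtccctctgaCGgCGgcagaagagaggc
MEIS2, chr15:37099107-37099356, minus strand, 26 CG: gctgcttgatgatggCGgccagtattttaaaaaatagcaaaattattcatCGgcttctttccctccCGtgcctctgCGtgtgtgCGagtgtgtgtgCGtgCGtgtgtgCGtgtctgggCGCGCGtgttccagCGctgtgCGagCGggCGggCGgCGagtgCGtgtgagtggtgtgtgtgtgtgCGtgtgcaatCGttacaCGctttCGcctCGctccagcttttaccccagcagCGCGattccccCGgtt
CDX2, chr13:27969316-27969565, minus strand, 10 CG: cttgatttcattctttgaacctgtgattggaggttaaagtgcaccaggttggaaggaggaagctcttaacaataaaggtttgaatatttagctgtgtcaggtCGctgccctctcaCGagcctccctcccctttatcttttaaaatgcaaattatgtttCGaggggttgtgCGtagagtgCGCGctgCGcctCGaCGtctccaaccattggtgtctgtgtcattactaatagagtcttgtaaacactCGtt
SUFU, chr10:102503722-102503971, plus strand, 11 CG: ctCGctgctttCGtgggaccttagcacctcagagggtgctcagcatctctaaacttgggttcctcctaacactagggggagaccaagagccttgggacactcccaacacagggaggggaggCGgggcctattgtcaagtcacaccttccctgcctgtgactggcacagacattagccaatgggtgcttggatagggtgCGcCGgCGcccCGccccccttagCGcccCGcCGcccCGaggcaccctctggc

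The HOXA10 window lay in a fragment with 3 gained contacts, and HOXA11 had 1. NKX2-1 had 3, MEIS2 1 and CDX2 1. SUFU, an inhibitor of hedgehog signalling, had both 1 gained and 1 lost contact at its promoter fragment, with partners at 75.7 and 86.6 kb. The CG content of these windows ranged widely, from more CG than 47.8% of the 35116 windows in the table for CDX2 to more than 80.4% for MEIS2. Over all linked genes with a window (8948 of 11293, defined below), 54.7% had 20 or more CG (53.7 to 55.8). Of the 27305 genes in the table, 36.0% (35.4 to 36.5) had as many. Linked genes are all protein-coding, but the table holds more genes than the 20056 protein-coding genes of the annotation. It thus includes other kinds of gene, and the shares of 54.7% and 36.0% are not directly comparable. Among linked genes with more calls the share was 59.5% (55.6 to 63.4; 603 genes), and among those with fewer calls 56.7% (50.7 to 62.5; 268 genes). These intervals overlap, and 79.2% of the linked genes had a window in the table.

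Calls within chromosomes numbered 18272 in naive, 18327 at day 1, 22673 at day 3 and 21342 at day 5. Naive and day 1 differed little and both later columns were higher, with 36599 calls before and 44015 after, a ratio of 1.20. The gap was wider among strong contacts with a score of 10 or more, at 335, 320, 496 and 426 calls in the same order, a ratio of 1.41. It was also wider at short range. Below 50 kb the ratio was 1.49 (1382 against 2055 calls), from 50 to 100 kb it was 1.30, from 100 to 250 kb 1.22, from 250 to 500 kb 1.14, from 500 kb to 1 Mb 1.15 and over 1 Mb 1.18. The share of calls under 100 kb was 15.1% (14.6 to 15.6) in naive, 15.5% (14.9 to 16.0) at day 1, 17.0% (16.5 to 17.5) at day 3 and 17.2% (16.7 to 17.8) at day 5.

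The higher numbers did not persist at the next time points. Day 7 had 18651 calls and day 10 had 18752, close to naive, before 20498 at day 14. Primed H9 cells had 23764, DE 29563 and NE 32672. Listed contacts are only those that reach 5 somewhere. The comparison was therefore repeated over the 123425 contacts called in 1 or more of the 6 other columns. Of these, 3.56% were called in naive (3.46 to 3.67), 3.55% at day 1 (3.45 to 3.65), 4.63% at day 3 (4.51 to 4.74) and 4.16% at day 5 (4.05 to 4.28), a ratio of 1.24. Day 3 was again highest and day 5 next.

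**Figure D1:**
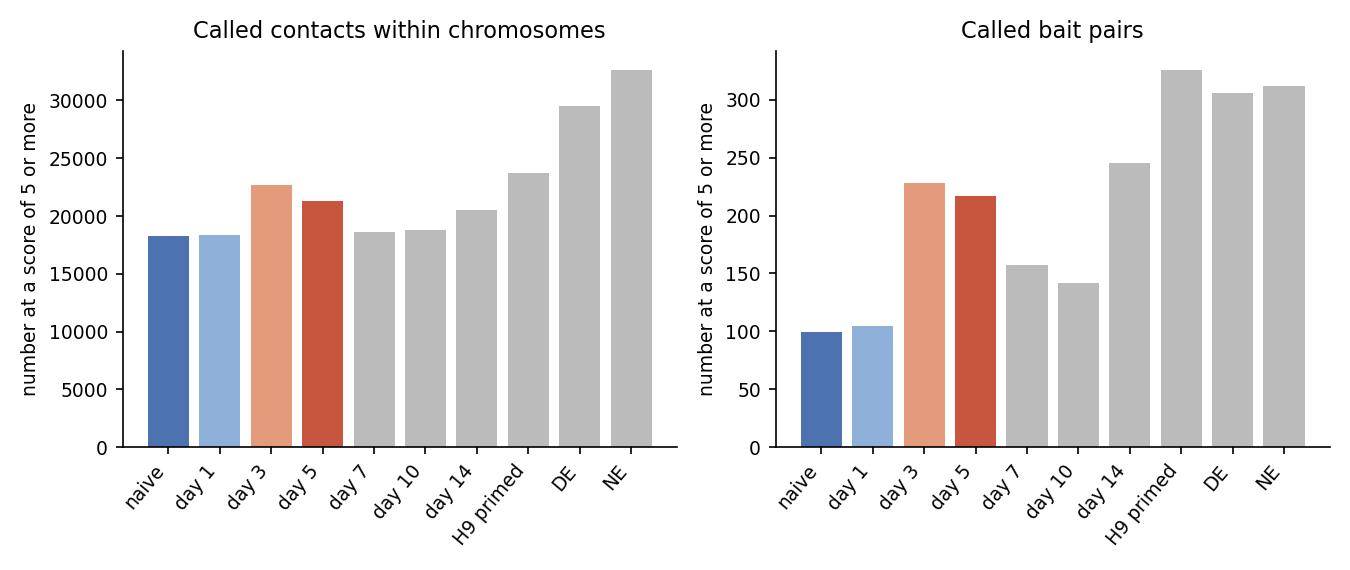
Called contacts within chromosomes (left) and called bait pairs (right) in each condition, as numbers at a score of 5 or more with 1 pooled value per condition; the compared conditions are in colour. Bait pairs stood at 99 and 105 in naive and at day 1 and at 228 and 217 at days 3 and 5, a wider gap than for all contacts.

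Single contacts recurred little between columns. Of contacts called in any of the 4 columns, 68623 (92.8%) were called in 1 column, 4257 in 2, 835 in 3 and 243 in all 4. Day 3 and day 5 shared 1690 calls, a Jaccard index (shared calls over calls in either) of 0.0399. Naive and day 1 shared 1195, with an index of 0.0338. Naive shared more calls with day 3 (1462, 0.037) than with day 1, so the calls of the columns did not fall into an early and a late block. Day 1 shared 1418 with day 3 and 1284 with day 5, and naive shared 1171 with day 5.

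Many members lay close to the score limit. A calling score under 5.5 or another score above 4.5 was present in 532 gained (54.0%) and 331 lost contacts (57.3%). Just outside lay 769 further contacts that reached 4.5 at both day 3 and day 5 but 5 at no more than 1 of them, with naive and day 1 under 5, and 468 such contacts for the lost class. The median score of gained contacts was 1.91 in naive, 2.27 at day 1, 6.03 at day 3 and 6.08 at day 5. For lost contacts it was 6.0, 5.98, 2.22 and 1.84 in the same order. A gap of 3 or more between the lowest calling score and the highest other score was present in 473 gained (48.0%) and 268 lost contacts (46.4%), and 36 of each class had a score of 0 in both of the other columns.

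Gained contacts were shorter than lost ones. The median distance was 152 kb (quartiles 94.1 and 237) for gained, 172 kb (115 and 257) for lost and 228 kb for all listed contacts. Under 100 kb lay 28.1% of gained contacts (25.4 to 31.0), 20.2% of lost (17.2 to 23.7) and 15.7% of all listed (15.6 to 15.9). Gained contacts had 835 baits, of which 21 had 3 or more of them and 1 had 8, and lost contacts had 533 baits, of which 4 had 3. Members that share a bait or neighbouring fragments are not independent of each other.

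Gained contacts lay together more often than lost ones. With contacts joined where both ends lay within 50 kb, 40.0% of gained and 24.2% of lost contacts had a partner of their class, and 52 gained but 11 lost clusters held 3 or more contacts. A larger class gives more such neighbours by its size alone. The largest gained cluster had 12 contacts from 8 baits around PAX3, a neural crest and muscle transcription factor, at chr2:222026283-222327082. Others had 11 contacts at HOXC, 10 at MEIS2, which encodes a partner of HOX proteins, 10 from HOXD to MTX2, 10 at the PCDHA genes and PCDHB1, which encode protocadherins, 9 at OTP, a hypothalamic homeobox gene, and 9 from SKAP2 to HOXA. FOXD2 had a gained cluster of 7 and, over nearly the same interval, a lost cluster of 5. The largest lost cluster had 6 contacts at SIAE to MSANTD2 on chromosome 11, and further lost clusters lay at CBX5 and HNRNPA1 (5), at ACO1 and TOPORS (5), within HOXC to SMUG1 (4) and at CHIC2, GSX2 and PDGFRA (4). HOXC and NEUROG2 thus had clusters of both classes, with 3 gained and 3 lost contacts at NEUROG2.

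Contacts listed next to the members, apart from members of the same class, had about the ratio of calls of all contacts. For gained contacts, themselves left out, there were 1112 other listed contacts of the same bait with the other end within 10 kb. Of these, 227 were called in naive, 229 at day 1, 294 at day 3 and 256 at day 5, a ratio of 1.21. For lost contacts, themselves left out, there were 605 such neighbours, with 128, 111, 149 and 143 calls and a ratio of 1.22. The neighbours that remained thus had more calls at days 3 and 5 in both classes. Leaving out each class lowers the ratio next to gained contacts and raises it next to lost ones. The likeness of the ratios is therefore partly built in, and no conclusion is drawn from it.

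The 6 columns outside the definition gave an independent measure. Gained contacts were called in 17.7% of cases at day 7 (15.5 to 20.3), 15.3% at day 10 (13.2 to 17.7), 21.4% at day 14 (19.0 to 24.1) and 20.5% in H9 (18.1 to 23.1). For lost contacts the shares were 16.4% (13.6 to 19.7) at day 7, 15.4% (12.7 to 18.6) at day 10, 17.5% (14.6 to 20.8) at day 14 and 15.4% (12.7 to 18.6) in H9. The H9 intervals touched narrowly, with 18.1% as the lower bound for gained and 18.6% as the upper bound for lost contacts, and those at days 7, 10 and 14 overlapped more. In DE 22.7% of gained (20.2 to 25.4) and 21.6% (18.5 to 25.2) of lost contacts were called, and in NE 22.5% (20.0 to 25.2) and 24.9% (21.6 to 28.6). Over all 182303 listed contacts the shares were 10.2% at day 7, 10.3% at day 10, and 11.2% at day 14, with 13.0% for H9, 16.2% for DE and 17.9% for NE. Over the 73958 contacts called in 1 or more of the 4 columns they were 4.59%, 4.56%, 5.19%, 5.46%, 6.59% and 7.38% in the same order. Both classes lay above these shares in all 6 columns, although in H9 the lower bound for lost contacts (12.7%) was below the 13.0% of all listed. Every contact in the classes had 2 calls already, which most contacts of the second group had not. In none of the 6 columns were 418 gained (42.4%, 39.3 to 45.5) and 267 lost contacts (46.2%, 42.2 to 50.3) called. Only 9 gained and 2 lost contacts were called in all 6.

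**Figure D2:**
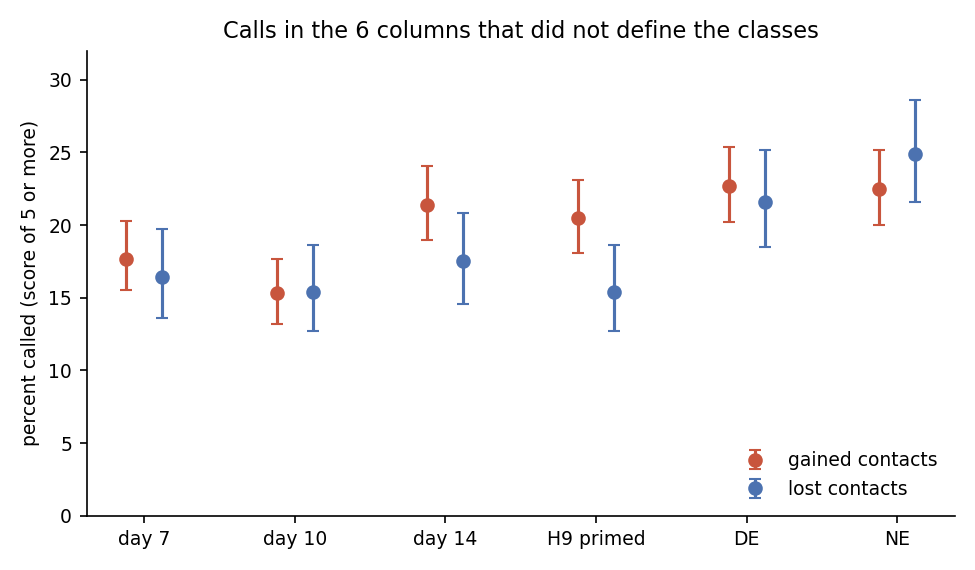
Percent of the 986 gained and 578 lost contacts called in each of the 6 columns that did not define them, with Wilson 95% intervals (counting error only) as bars. The shares lie between 15.3% and 24.9%, and gained and lost contacts differ most in H9 primed cells (20.5% and 15.4%).

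Pairs of baits, both ends of which were captured elements, differed more than contacts in general. Called pairs numbered 99 in naive, 105 at day 1, 228 at day 3 and 217 at day 5, so 204 before and 445 after, a ratio of 2.18. Bait-to-bait listings made up 0.711% of calls in naive (0.600 to 0.844), 0.737% at day 1 (0.623 to 0.871), 1.29% at day 3 (1.15 to 1.45) and 1.27% at day 5 (1.13 to 1.43). Neither early interval overlaps a late one, but the intervals hold no replicate error. A pair can be listed from both baits and pairs share baits, so listings are not independent. Over the 1333 pairs listed through another column, 22, 16, 53 and 36 were called in the same order, a ratio of 2.34. Days 7 and 10 had 157 and 142 pairs and day 14 had 245, against 326 in H9. With equal numbers of calls in each column, pairs numbered 99, 105, 197 and 189.

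Few single pairs met the definition, with the higher score taken where a pair was listed from both baits. Of 1847 listed pairs, 6 were gained (0.325%) and 1 was lost (0.0541%), whereas 413 were called only at day 3 or day 5, 180 only in naive or at day 1, 19 on both sides, 4 in all 4 columns and 1235 in none of them. At OTP, 2 gained pairs joined neighbouring baits 211 and 202 kb apart, at chr5:77635685-77636727 with chr5:77847302-77847991 and at chr5:77643638-77645111 with chr5:77845896-77847132. The first scored 0 in naive, 3.36 at day 1, 6.42 at day 3 and 5.37 at day 5, and the second 0, 2.35, 6.43 and 9.50. Both were under 5 in all 6 other columns. A pair at PAX3, 286 kb apart (chr2:222026283-222026506 and chr2:222312251-222312706), scored 0, 0, 5.62 and 5.70, and it had a score of 0 in every other column. The pair next to HOXC12 reached 5.35 and 5.29 from 0 and 1.5. A further gained pair lay at chr9:62748561-63816850. The lost pair joined the sides of the chromosome 16 centromere with scores of 5.07, 7.87, 2.14 and 1.21, and it reached 29.01 in NE.

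Baits joined by pairs formed more groups of 3 or more at days 3 and 5. Such groups numbered 8 in naive, 9 at day 1, 23 at day 3 and 21 at day 5. At OTP a group held 4 baits in naive, 5 at day 1, 16 at day 3 and 11 at day 5. At MEIS1, which like MEIS2 encodes a HOX cofactor, 8 baits were joined at day 3, and at FOXA2, an endoderm regulator, 9 were, while at day 5 neither locus had a group of 4 or more. In naive cells the only other groups of 4 or more lay at SKAP2 to HOXA4, with 5 baits, and across the chromosome 16 centromere, with 8.

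Genes were linked to a contact where an annotated end of the gene lay in the bait or the other end widened by 1 kb. Of 11293 linked protein-coding genes, 784 had more calls (6.94%) and 331 fewer (2.93%). With the gene at the other end only, 388 of 9445 had more (4.11%) and 169 fewer (1.79%). The mean number of calls per linked gene was 0.586 in naive, 0.592 at day 1, 0.797 at day 3 and 0.743 at day 5, and the median change of the sum, days 3 and 5 minus naive and day 1, was 0. With equal numbers of calls per column, 554 genes had more (4.91%) and 451 fewer (3.99%), so part of the imbalance moved with the number of calls.

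HOX genes set position along the body axis. The 39 genes had a mean of 3.10 calls in naive, 4.41 at day 1, 6.56 at day 3 and 7.08 at day 5, and a median change of 6. More calls were found at 19 genes, fewer at 1 and overlapping values at 19. Of all linked genes 6.94% had more and 2.93% fewer, but their means were only 0.586 to 0.797 calls. The HOX counts are thus not directly comparable with those shares. At equal numbers of calls the count was 12 more (30.8%) and 1 fewer (2.56%), with means of 3.10, 4.41, 5.51 and 6.28. The shares of all linked genes were then 4.91% and 3.99%. Linked only at the other end, 11 of 37 genes had more and 0 fewer, against 4.11% and 1.79% of all genes so linked. The mean at day 7 was 5.18 and at day 10 4.85, followed by 8.33 at day 14. H9 cells had a mean of 10.9, DE 7.36 and NE 6.92.

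The largest gains among HOX genes were in the HOXA cluster. HOXA10 had 3 calls in naive, 3 at day 1, 16 at day 3 and 12 at day 5, and 3 gained contacts. HOXA11, also at the posterior end, had 0, 0, 7 and 7. Both days exceeded both earlier columns in each case, and HOXA11 had no call before day 3. HOXA9 had 6, 7, 16 and 12, then 9, 6 and 17 at days 7, 10 and 14, with 12 for H9, 5 for DE and 7 for NE. The gained partners of the HOXA10 promoter window lay within the cluster, at 78.0, 41.4 and 4.14 kb. The closest of these scored 3.93, 4.96, 8.85 and 5.86 in the 4 columns. HOXA5, in the middle of the cluster, was the 1 gene with fewer, at 12, 11, 7 and 8.

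The HOX clusters share baits and other ends among neighbouring genes, so their genes are not independent. HOXC11 had 8, 22, 14 and 14 calls, without a difference between the sides, and its sum was lower by 2. In the HOXB cluster, HOXB13 (2, 2, 9 and 5), HOXB9 (3, 2, 6 and 9) and HOXB3 (3, 5, 9 and 9) had more, while HOXB7 had 0 in all 4 columns. HOXD9 had 3, 6, 9 and 7 and HOXD13 1, 0, 2 and 6.

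The 108 linked homeobox genes outside HOX had means of 1.28, 1.44, 2.56 and 2.43 in naive and at days 1, 3 and 5, with 23 more, 2 fewer, 83 overlapping and a median change of 1. OTP had the largest change of the sum of any gene, with 1, 9, 30 and 9 calls, but day 5 equalled day 1 and the sides overlapped. By its annotated ends OTP was linked to 0 gained contacts, so those at the locus lay beside these ends. SIX6, an eye and pituitary factor, had 2, 3, 10 and 10, and ISL1, a motor neuron and heart factor, 5, 4, 10 and 12. In both, each later column was above each earlier one. MEIS2 had 5, 6, 11 and 13. CDX2, a trophoblast and gut regulator, had 2, 5, 10 and 9, and its neighbour PDX1, a pancreas regulator, 0, 2, 7 and 5. NKX2-1, a lung, thyroid and forebrain factor, had 0, 1, 7 and 5 calls, and in all of them it lay at the other end. Its promoter window met the fragment at chr14:36663677-36663950, 141 and 146 kb away, with scores of 0 in naive, 2.56 and 2.59 at day 1, 11.47 and 10.37 at day 3 and 5.12 and 6.67 at day 5. BARHL1 (5, 3, 1 and 0) and OTX1 (3, 2, 0 and 1), both brain homeobox genes, had fewer, and LHX9 had the largest loss of the list at 3, 10, 3 and 0, although its sides overlapped. At equal numbers of calls the list had 19 more (17.6%) and 3 fewer (2.78%), against 4.91% and 3.99% of all linked genes.

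**Figure D3:**
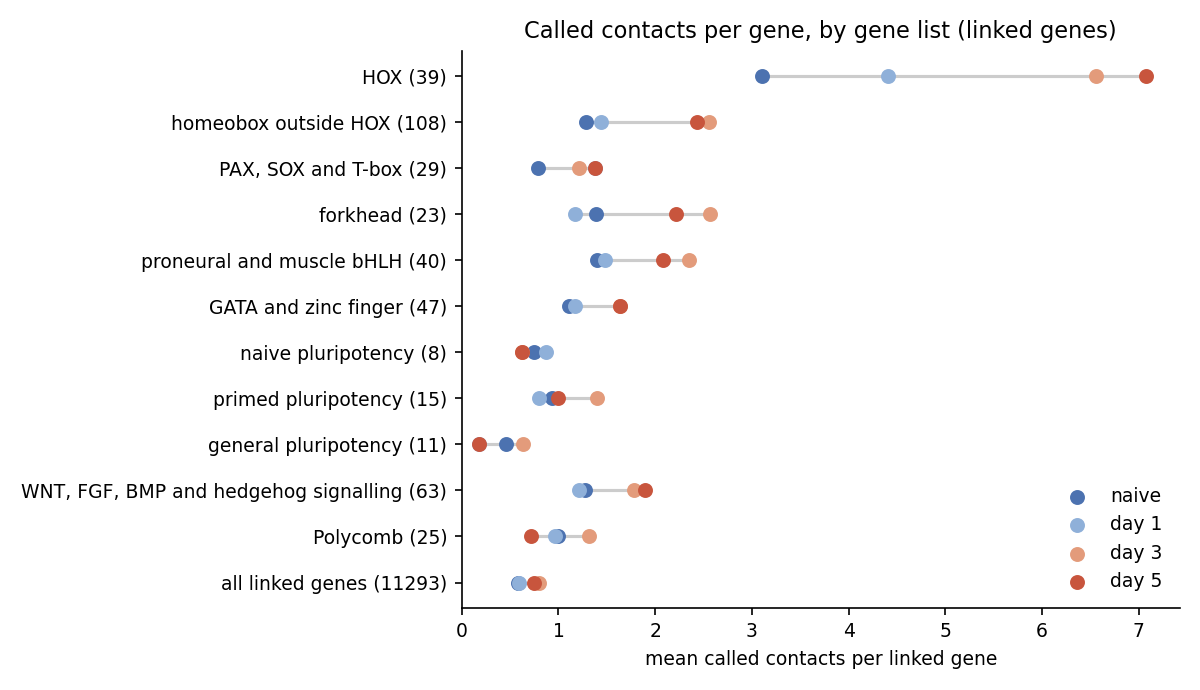
Mean called contacts within chromosomes per linked gene in naive, at day 1, day 3 and day 5. All linked genes and every gene list except housekeeping are shown, with the number of linked genes in brackets. Points are pooled columns without replicate error. HOX genes run from 3.10 in naive to 7.08 at day 5, and all linked genes from 0.586 in naive to 0.797 at day 3.

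The other lists of developmental regulators varied in how many genes had more calls, against 6.94% with more and 2.93% with fewer among all linked genes. The 23 forkhead genes had means of 1.39, 1.17, 2.57 and 2.22, with 5 more and 2 fewer. FOXA2 had 3, 2, 8 and 9, and FOXD2 2, 2, 6 and 6, while FOXC2 had 2, 3, 1 and 1. The 40 proneural and muscle bHLH genes had means of 1.40, 1.48, 2.35 and 2.08, with 9 more and 1 fewer. MYOD1, the muscle determination factor, had 3, 4, 20 and 5, so its gain was almost all at day 3. NEUROG1, a sensory neuron factor, had 5, 4, 9 and 10 and HAND1 5, 7, 8 and 13, and PTF1A was the 1 gene with fewer, at 1, 1, 0 and 0. The 29 PAX, SOX and T-box genes had means of 0.793, 1.38, 1.21 and 1.38, so day 1 was as high as day 5, and 3 had more and 2 fewer. In that list EOMES, a mesendoderm regulator, had 1, 3, 5 and 4 and SOX14 had 4, 5, 3 and 2. PAX3 had 1, 2, 2 and 0, with overlapping sides and 0 gained contacts linked to the gene. The gained contacts around PAX3 thus lay away from its annotated ends. Among 47 GATA and zinc finger genes, with means of 1.11, 1.17, 1.64 and 1.64, 4 had more and 1 fewer, near the 6.94% and 2.93% of all linked genes. SP9 (2, 3, 8 and 8), ZIC4 (1, 3, 6 and 7) and EBF1 (3, 4, 7 and 8) had more and INSM1 had fewer (2, 1, 0 and 0). With equal numbers of calls, 4.91% of all linked genes had more and 3.99% fewer. Forkhead genes then had 4 more and 2 fewer (17.4% and 8.7%), and bHLH genes 5 and 1 (12.5% and 2.5%). GATA and zinc finger genes had 3 and 2 (6.38% and 4.26%), and PAX, SOX and T-box genes 2 and 2 (6.9% each). The means of the last list were then 0.793, 1.38, 0.862 and 1.24, so its summed change turned from higher to lower.

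The 63 genes of WNT, FGF, BMP and hedgehog signalling had means of 1.27, 1.21, 1.78 and 1.90, with 12 more and 1 fewer and a median change of 1. Ligands included FGF20 (5, 1, 7 and 10), GDF6 (2, 3, 5 and 8), FGF17 (2, 1, 3 and 6), DHH (2, 2, 5 and 5), WNT1 (0, 0, 1 and 3) and SHH (1, 1, 3 and 2). The BMP antagonists NOG and CHRD had 4, 4, 6 and 6 and 1, 1, 2 and 4. RSPO4, a WNT enhancer, was the gene with fewer, at 2, 2, 0 and 0. At equal numbers of calls this list had 9 more (14.3%) and 2 fewer (3.17%), against 4.91% and 3.99% of all linked genes.

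Among genes of pluripotency and of Polycomb itself few differed between the sides. The 8 linked genes of naive pluripotency, of 25 listed, had means of 0.75, 0.875, 0.625 and 0.625, and all 8 overlapped. The 15 of primed pluripotency had 0.933, 0.80, 1.40 and 1.00, with POU3F1, a neural and epiblast POU factor, as the 1 with more (1, 1, 2 and 2). The 11 of general pluripotency had 0.455, 0.182, 0.636 and 0.182, and none had more or fewer. The 25 Polycomb genes had means of 1.00, 0.96, 1.32 and 0.72, with SCML2 more and RING1 and CBX2 fewer. CBX2, a reader of the Polycomb mark, had 6, 6, 4 and 2. At equal numbers of calls the Polycomb means were 1.00, 0.96, 1.00 and 0.64, and their summed change also turned lower. The 14 linked housekeeping genes had means of 0.143, 0.0714, 0.214 and 0.357, also higher at days 3 and 5, and none had more or fewer. These lists hold few linked genes and few calls each.

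Of the other genes chosen by name, SOX17, an endoderm factor, had 3, 3, 5 and 5 calls, 10 at day 14, 14 in DE and 17 in NE. SOX1, a neural factor, had 1, 1, 0 and 0. OTX2 had 3, 0, 5 and 2, GATA6 2, 2, 2 and 0, PAX6 0, 1, 0 and 0 and TFCP2L1, a naive factor, 0, 1, 0 and 1, all with overlapping sides. KLF17, another naive factor, was linked to no listed contact within its chromosome.

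Among genes of any kind, large gains beside those of OTP and HOXA10 were at PCDHB1 (13, 16, 28 and 22), MYOD1, CPED1 (9, 9, 18 and 17), HOXA2 (4, 10, 12 and 19), HOXA3 (1, 10, 11 and 16), ANKRD34A (1, 0, 13 and 4) and SFTPC, a lung surfactant gene (0, 2, 8 and 10). CR1, a complement receptor, had the largest loss with fewer calls in both later columns, at 8, 8, 2 and 3. SUFU had 10, 7, 4 and 3. RHBG, an ammonium transporter, had 9, 12, 6 and 5, and ACO1, which encodes an iron-responsive aconitase, 11, 10, 7 and 4. CDKN1B, a cell cycle inhibitor, had 8, 5, 1 and 3, and MACROH2A1, a histone variant gene, 6, 4, 0 and 1. SST, the somatostatin gene, had a loss as large as that of CR1 (19, 14, 16 and 6), but day 3 exceeded day 1. At the other end the largest losses were at HIF1AN, the asparaginyl hydroxylase that modifies HIF, with 5, 5, 1 and 1, GABRP, a GABA receptor subunit gene, with 4, 3, 0 and 1 and CENPF, which encodes a kinetochore protein, with 4, 2, 0 and 0.

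Calls were summed over 52 developmental loci, each a gene or cluster with 400 kb on either side. There were more calls at 30 loci, fewer at 3 (HAND2, TBX3 and TBX5, and SOX21) and overlapping numbers at 19, with a median ratio of 1.34. Of 2468 windows of 1 Mb over all chromosomes, 488 had more (19.8%) and 173 fewer (7.01%). Loci and windows differ in length and in number of calls, so these counts are not directly comparable. Together the loci had 1736, 1913, 2493 and 2487 calls, a ratio of 1.36, against 1.18 elsewhere. They held 10.3% of listed contacts, and 0.925% of those were gained and 0.348% lost, against 0.497% and 0.314% elsewhere. At equal numbers of calls, 20 loci had more and 6 fewer, and the median ratio was 1.13. The locus counts are thus set in part by how many contacts were called per column.

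HOXC had the largest increase in number, with 198 calls in naive, 254 at day 1, 285 at day 3 and 294 at day 5, but at equal numbers its sides overlapped (198, 253, 249 and 261). PAX3 had 114, 121, 185 and 154 and HOXA 107, 115, 148 and 173. OTP had 87, 116, 163 and 133, and its bait pairs numbered 7, 9, 22 and 12. HOXB had 100, 108, 156 and 135. These 4 had more at equal numbers as well. FOXD1, a kidney and forebrain forkhead gene, had 35, 34, 66 and 69. HOXD had 39, 41, 66 and 71, FOXA2 39, 37, 62 and 67 and the NKX2-1 and PAX9 locus 36, 30, 67 and 52. MEIS1 had 17, 25, 44 and 44 calls, and its bait pairs were 0, 0, 8 and 4. ISL1 had the highest ratio of the 52 loci, 3.22, from 11, 7, 25 and 33 calls. SOX21, a neural SOX gene, had 28, 32, 22 and 21, TBX3 and TBX5 83, 77, 73 and 72 and HAND2 15, 13, 12 and 12.

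**Figure D4:**
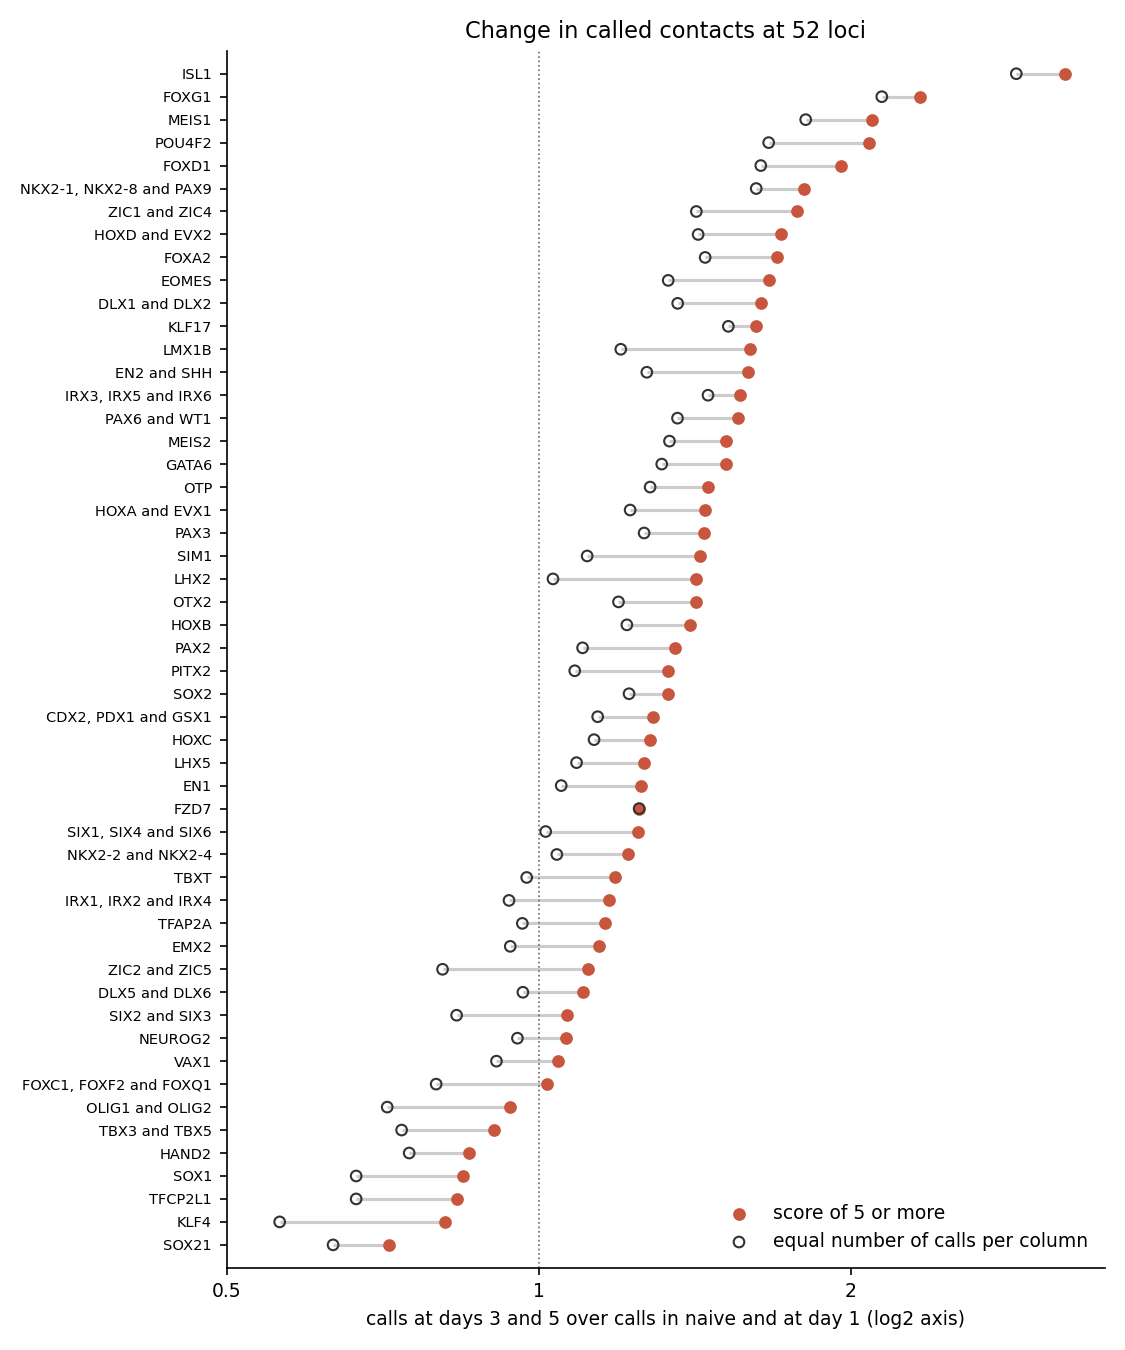
Calls at days 3 and 5 over calls in naive and at day 1 at the 52 loci, on a log2 axis, with all calls at a score of 5 or more (filled) and with equal numbers of calls per column (open). ISL1 lies highest at 3.22 and 2.89, the dotted line marks a ratio of 1, and the open points of several lower loci fall below 1 where the filled ones are above it.

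Windows chosen without regard to genes gave mostly the same places. The window with the largest gain held HOXC4 to HOXC9 (150, 190, 227 and 234), followed by those with PAX3, OTP, HOXB, HOXA and HOXD. These windows had 96, 57, 54, 106, 72 and 66 baits in that order, and the first had a ratio of 1.36. A window with FOXP4 (47, 47, 75 and 86) and one with CHRD and EPHB3 (36, 36, 56 and 79) were outside the loci. The largest losses were smaller, at windows with ST18 and RB1CC1 (23, 19, 10 and 10), FGF18 and TLX3 (26, 29, 16 and 17), DNMT3A and POMC (19, 20, 10 and 8), ZNF354A (34, 33, 23 and 24) and SOX21.

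The map of contacts around 4 of these loci shows how they were arranged. At PAX3, 21 contacts were gained and 8 lost, and most gained ones joined the gene or its higher flank to an interval below its lower end. At OTP, 13 were gained and 5 lost, and all gained ones ran from the gene or close to it towards higher coordinates. HOXA had 16 gained and 1 lost contact, most of the gained ones either within the cluster or from the cluster towards SKAP2. MEIS2 had 10 gained and 2 lost contacts, which ran within the gene or beyond its ends.

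**Figure D5:**
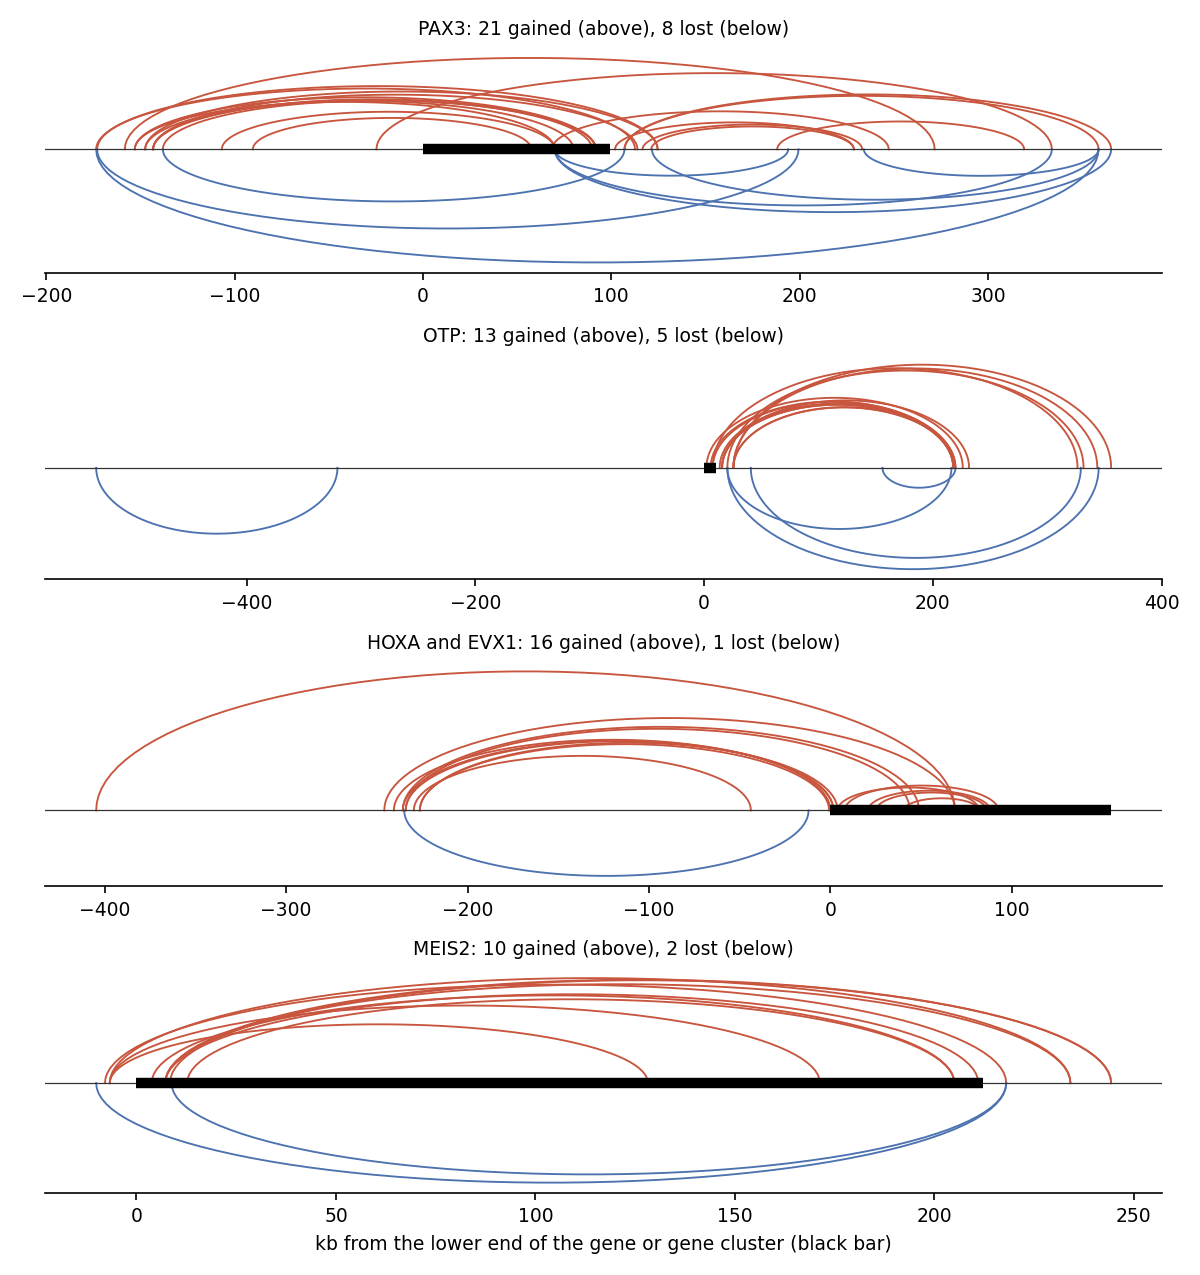
Gained (red, above) and lost (blue, below) contacts with the bait within 400 kb of 4 loci, as arcs between fragment midpoints along the distance in kb from the lower end of the gene or cluster (black bar); arc height follows contact length. Gained against lost contacts number 21 and 8 at PAX3, 13 and 5 at OTP, 16 and 1 at HOXA and 10 and 2 at MEIS2.

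The strongest single contacts were ranked by the gap between the lowest calling and the highest other score. The first and second gained contacts joined fragments on either side of the chromosome 16 centromere (4.43, 0, 17.69 and 24.41) and near that of chromosome 20 (0, 1.13, 17.26 and 13.40), regions rich in repeats. Whether read mapping there plays a part was not tested. The next joined GLUL, the glutamine synthetase gene, to the ZNF648 region 310 kb away, with scores of 1.23, 0, 11.97 and 10.28. A contact at LGI1 scored 3.73, 3.42, 12.56 and 12.86, and 1 of 418 kb from SNX19 to ADAMTS15 scored 2.56, 1.15, 16.96 and 10.38. Around PAX3 lay 3 of the 10. One from a bait within the gene to chr2:222053903-222059225, 233 kb away, scored 2.59, 0, 15.99 and 10.04 and was called in all 6 other columns, with 17.44 in NE.

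Among lost contacts the largest gap was between a bait at chr1:47494944-47495261, 54.3 kb from FOXD2, and chr1:47700589-47705867 towards TRABD2B. It scored 10.77 in naive, 10.30 at day 1, 0.90 at day 3 and 1.18 at day 5, and the adjacent bait met the same fragment with 6.07, 8.11, 0 and 0. In the 6 other columns the first was called in NE alone, at 5.58, and the second in none. A bait in MFAP3L scored 11.10, 9.94, 1.72 and 0, and one in PTCH1, the hedgehog receptor, 9.70, 6.13, 0 and 0. A 450 kb contact from near one end of KCNMA1, a potassium channel gene, into the gene scored 7.07, 6.48, 0 and 0. One at MN1 scored 6.29, 8.28, 0 and 0.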

How the data were processed

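PECHi-C enriches Hi-C libraries cut with DpnII for fragments that hold poised enhancers, by RNA baits, per the labels' protocols. The values are CHiCAGO scores that the authors computed for each pair of fragments and deposited as 1 column per condition, so both libraries of a condition share 1 value. Coordinates are on GRCh38 per the submitters' processing notes. Which aligner, caller settings and binning were used, and the read depth, is not given in the sources used here. Each listed contact reaches a score of 5.00 in at least 1 of the 10 columns.

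Computed here, in Python 3.11.15 with pandas 2.3.3, SciPy 1.17.1 and networkx 3.6.1, were calls at 5 or more, gained and lost classes, unordered bait pairs, connected groups of baits, clusters of contacts, calls per gene, locus and window of 1 Mb, and Wilson intervals. Genes came from RefSeq (20056 protein-coding genes, with 95 readthrough genes left out). The counting code was checked on simulated data. Alternatives were other score limits, equal numbers of calls per column, nearby calls, single counting of pairs, other gene links and leaving out each column. Genes, contacts, loci and windows were named by the size of their gain or loss, with a few fixed genes. The members, the 12 gene lists and the 52 loci were chosen with earlier results of these data known. Labels give no separate origin for the 2 libraries of a condition. Some items that the naming rule selects are not reported here.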

Additional observations from a re-analysis of the deposited data

How the results depend on the processing

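Gained contacts (986) numbered 4588 at a score limit of 3, 31 at 10 and 2805 where a call within 10 kb counted. Lost contacts (578) numbered 3112, 14 and 1554 under the same settings. Gained bait pairs (6) numbered 28, 0 and 32, and lost pairs (1) numbered 11, 0 and 0. Leaving out a column that must be called removes that condition from the definition: without day 3 there were 19275 gained contacts and 204 pairs, without day 5 20265 and 215, and without naive 16110 lost contacts and 95 pairs, without day 1 16101 and 86. With equal numbers of calls per column 777 contacts were gained and 614 lost, so their ratio was closer to 1. The mean change per HOX gene, 3.06 calls, was 4.73 at a limit of 3, 0.128 at 10, 1.62 with the gene at the other end only and 1.74 with no widening. For homeobox genes outside HOX it was 1.13, and 0.102 at 10, 0.477 at the other end only and 0.477 with no widening. No direction of these list changes reversed under the settings run, and the other settings kept each count or change within 1.5 times. No paired analysis was possible because each column pools both libraries of a condition, which also kept single libraries from being left out. Depth was unknown, so numbers of calls per column cannot be told apart from it.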
